A study of Mus musculus with 2 samples.

Results

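Red blood cell lineage cells under 2 names were compared within the same mouse embryos: the cells that the authors of the data named Erythroblast and those that they named Erythrocyte. Membership was taken from the cell type column of the deposited cell table, and the gene UMIs (transcript molecules counted once each) were summed over the cells of each name in each suspension. In all, 204 of the 5678 cells were members, 144 of them Erythroblast and 60 Erythrocyte. The Erythroblast cells numbered 64 (F0_8), 52 (F0_9), 7 (F1_1) and 21 (F1_mix) in the 4 suspensions. The Erythrocyte cells numbered 12, 23, 9 and 16 in the same order, which is kept for every set of 4 values given here.

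Every suspension came from mouse embryos at E11.5 that carried a piggyBac transgene in which the CAG promoter drives EGFP linked to a DNA barcode, and there was no embryo without the transgene. F0_8 and F0_9 were each 1 founder embryo, F1_1 was 1 embryo of the F1 generation, while in F1_mix the cells of a pair of F1 embryos had been mixed on purpose as an artificial mosaic. The founders came from C57BL/6J eggs and C57BL/6J sperm, and the cross behind the F1 embryos was not found in the labels or methods read. The suspensions were labelled with lipid-anchored oligos, pooled and captured as 1 library with a 3′ chemistry, so p-values measure the spread between 4 suspensions, and founder or F1 generation cannot be told apart from embryo or litter. No barcode was shared between suspensions, and all members carried the authors' call of a single cell. The summed depth outside globin genes ran from 45336 UMIs (Erythrocyte, F0_8) to 1605998 (Erythroblast, F0_8). The 9 marker lists of other tissues summed to no more than 2.76 UMIs per 10000 outside globin genes in either type in any suspension, and all 10 macrophage markers were at 0 in the Erythrocyte sums.

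Red blood cells of the mouse embryo arise in successive waves. Primitive cells from the yolk sac enter the circulation with their nuclei and carry embryonic globins, namely the beta-like chains of Hbb-y and Hbb-bh1 and the alpha-like chain of Hba-x. Definitive cells mature in the fetal liver and carry the adult chains of Hbb-bs, Hbb-bt, Hba-a1 and Hba-a2, while Hbb-bh1 is also transcribed at a low level in some early definitive cells. During maturation an erythroid cell accumulates hemoglobin, heme and membrane skeleton, stops dividing, condenses its nucleus and clears its organelles.

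The 2 names are clusters 12 and 15 of the authors' own clustering of these cells, so a difference in any gene other than EGFP partly restates how the cells were sorted into the names. The counts and fold changes are therefore descriptions. EGFP alone had been removed by the authors before clustering.

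The globin promoters are shown because the balance of embryonic (Hbb-y and Hbb-bh1) against adult (Hbb-bs and Hbb-bt) beta-like globin separated most single cells of the 2 types, and Hba-x is the embryonic alpha-like gene. Each stretch runs from 250 bases before to 50 bases after the start of the gene in the RefSeq annotation of GRCm38.p6, 5′ to 3′ on the strand of the gene, and capitals mark matches to the 2 motif families searched, a GATA site (AGATAA) and a CACC box (CCACACCC, or the looser CCNCNCCC, of which CCACACCC is one form). Of the 7 globin genes, 6 were matched in the RefSeq table and Hbb-bh1 was not. Hbb-y lies at chr7:103853158-103853457 on the minus strand, Hbb-bs at chr7:103827879-103828178 on the minus strand, Hbb-bt at chr7:103813874-103814173 on the minus strand and Hba-x at chr11:32276350-32276649 on the plus strand.
Hbb-y: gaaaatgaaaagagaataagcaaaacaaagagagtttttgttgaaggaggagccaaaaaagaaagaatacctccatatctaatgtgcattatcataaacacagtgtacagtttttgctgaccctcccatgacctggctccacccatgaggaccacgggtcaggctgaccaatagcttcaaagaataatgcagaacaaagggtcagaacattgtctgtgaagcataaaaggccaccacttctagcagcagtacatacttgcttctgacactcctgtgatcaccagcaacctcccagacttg
Hbb-bs: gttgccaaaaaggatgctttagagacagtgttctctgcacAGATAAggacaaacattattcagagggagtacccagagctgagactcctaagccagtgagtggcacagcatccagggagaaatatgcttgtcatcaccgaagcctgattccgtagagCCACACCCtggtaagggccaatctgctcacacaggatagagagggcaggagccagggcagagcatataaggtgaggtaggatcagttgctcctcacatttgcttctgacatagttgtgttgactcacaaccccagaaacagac
Hbb-bt: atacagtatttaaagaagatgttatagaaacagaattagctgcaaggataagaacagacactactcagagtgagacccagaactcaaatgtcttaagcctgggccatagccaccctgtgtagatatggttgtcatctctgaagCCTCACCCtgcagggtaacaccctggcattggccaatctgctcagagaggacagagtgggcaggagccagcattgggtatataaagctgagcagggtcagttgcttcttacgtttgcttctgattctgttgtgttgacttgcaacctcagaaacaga
Hba-x: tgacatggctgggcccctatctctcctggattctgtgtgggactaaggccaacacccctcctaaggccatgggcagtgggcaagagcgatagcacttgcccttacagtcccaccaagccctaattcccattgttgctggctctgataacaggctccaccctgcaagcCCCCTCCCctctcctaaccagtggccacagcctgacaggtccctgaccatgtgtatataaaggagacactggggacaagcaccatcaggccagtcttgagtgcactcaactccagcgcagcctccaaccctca
The window of Hbb-bs held AGATAA with its first base 210 bases upstream of the start, and CCACACCC 93 bases upstream. The window of Hbb-bt held a looser CACC match 107 bases upstream, and that of Hba-x one 83 bases upstream. The window of Hbb-y held none of these letters on either strand. Across 32851 RefSeq promoters of the same length, 11.2% held AGATAA, 3.56% held CCACACCC and 49.5% held CCNCNCCC, so the looser match is common and none of the matches shows that a factor binds there.

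Globin genes made up most of the RNA of Erythrocyte cells and a minor part of that of Erythroblast cells. Genes with symbols Hba- or Hbb- took 12.3%, 15.6%, 0.83% and 2.08% of the gene UMIs of the Erythroblast sums, against 80.9%, 75.2%, 59.2% and 63.8% of the Erythrocyte sums. The 0.83% of F1_1 was 0.155% without 1 of its 7 cells, which is described further on. The globin share was higher in both founders than in both F1 suspensions in either type. The globin UMIs of the median Erythrocyte cell were not, at 17174, 17481, 19872 and 20154.5, and its UMIs outside globin genes were 3925.5, 5104, 14327 and 11328. The median Erythroblast cell held 2796, 3340, 23 and 156 globin UMIs. In single Erythroblast cells the share ran from 0.0109% to 67.1% with a median of 7.21%, and in single Erythrocyte cells from 26.5% to 88.8% with a median of 70.2%.

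The types also differed in which globins they carried. Hbb-y, the main embryonic beta-like chain, was counted at 3680, 3739, 2849 and 3100 UMIs per 10000 gene UMIs in Erythrocyte. In Erythroblast it was at 0.399, 0.569, 31.4 and 0.322. The 3 Erythroblast values under 1 lie within or below the range of Hbb-y in all other cell types of the embryos (0.432 to 6.78), where free RNA contributes, so expression of Hbb-y in those Erythroblast sums was not detectable above background. Hba-x, the embryonic alpha-like chain, was at 1567, 1859, 1870 and 1924 in Erythrocyte and at 1.87, 20.6, 18.9 and 5.86 in Erythroblast. Hbb-bh1 was at 191, 229, 482 and 430 in Erythrocyte and at 6.88, 37.8, 6.99 and 4.12 in Erythroblast. In F1_1 most of these Erythroblast UMIs came from the 1 cell described further on, without which Hbb-y was at 0.290, Hba-x at 0.181 (5 UMIs) and Hbb-bh1 at 0.362 (10 UMIs). The groups did not overlap for any of these embryonic genes.

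The adult beta-like genes did overlap. Hbb-bs was counted at 543, 669, 6.21 and 76.3 UMIs per 10000 gene UMIs in Erythroblast and at 616, 250, 8.47 and 37.7 in Erythrocyte. Hbb-bt was at 312, 402, 5.92 and 63.2 in Erythroblast and at 526, 328, 103 and 158 in Erythrocyte. Both genes were higher in the founders than in the F1 suspensions in each type. The adult alpha-like genes, whose chains both embryonic and adult hemoglobins can use, were higher in Erythrocyte without overlap. Hba-a1 was at 224, 264, 8.55 and 38.1 in Erythroblast and at 923, 702, 390 and 463 in Erythrocyte. Hba-a2 was at 137, 171, 5.0 and 20.05 against 589, 415, 214 and 265, and because Hba-a1 and Hba-a2 are near-identical copies the split of reads between them is uncertain. These UMIs count transcript ends and are not scaled by gene length.

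**Figure D1:**
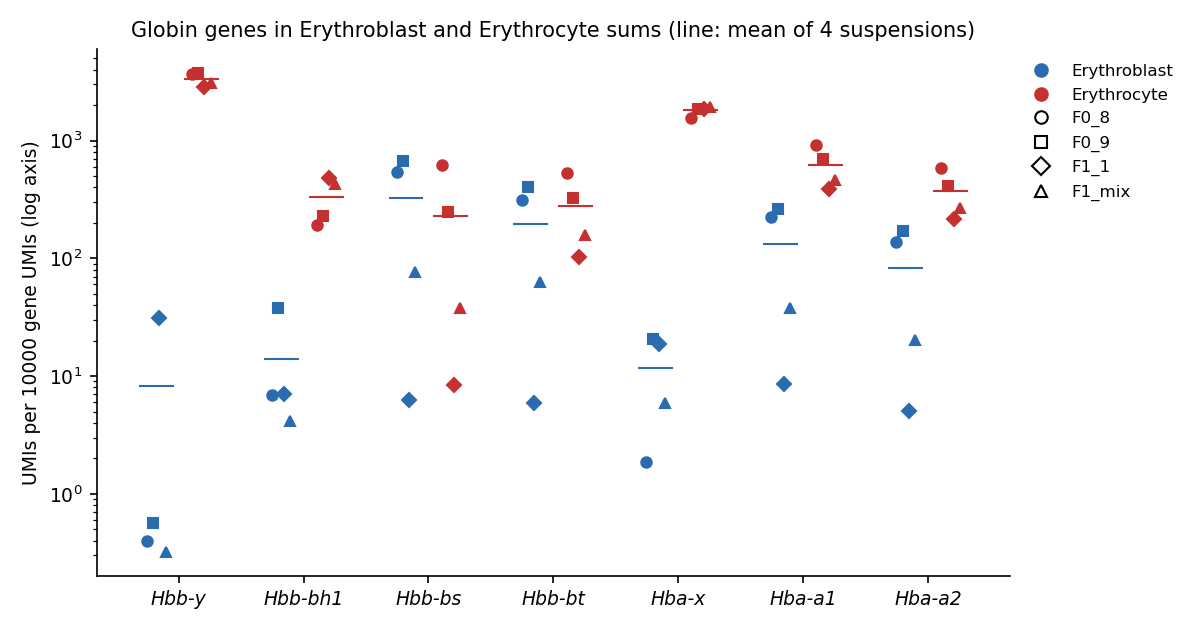
UMIs per 10000 gene UMIs (log axis) of 7 globin genes, 1 point per suspension in Erythroblast (blue) and Erythrocyte (red), with a line at the mean of each type. The embryonic genes Hbb-y, Hbb-bh1 and Hba-x are separated by type, with Hbb-y at 2849 to 3739 in Erythrocyte, whereas the points of Hbb-bs and Hbb-bt overlap.

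As a share of beta-like globin UMIs, the embryonic pair Hbb-y and Hbb-bh1 made up 0.844% (95% Clopper-Pearson interval 0.799 to 0.890), 3.46%, 76.0% and 3.09% in Erythroblast. In Erythrocyte the pair made up 77.2%, 87.3%, 96.8% and 94.8%. The high Erythroblast value of F1_1 came from 1 cell of 5877 gene UMIs that held 876 of the 884 Hbb-y UMIs of that sum and was itself 32.5% globin. Without it the F1_1 value was 5.56%, and the Hba-x share of alpha-like UMIs there went from 58.3% to 4.85%. The Hba-x share was 0.514%, 4.53% and 9.15% in the other Erythroblast sums and 50.9%, 62.5%, 75.6% and 72.5% in Erythrocyte. The intervals cover counting error only.

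Cell by cell, the separation was close to complete. Of the 119 Erythroblast cells with 50 or more beta-like UMIs, all but that 1 F1_1 cell carried more adult than embryonic beta-like globin. All 60 Erythrocyte cells reached that depth, and 56 carried more embryonic than adult. The 4 exceptions were 2 cells of F0_8 and 2 of F0_9. The 2 of F0_8 had 0 UMIs of either embryonic beta-like gene beside 4992 and 6295 Hbb-bs UMIs. The 2 of F0_9 had 734 and 2 Hbb-bh1 UMIs beside 3797 and 1961 Hbb-bs UMIs. Together these cells held 77.1% of the Hbb-bs UMIs of the F0_8 Erythrocyte sum and 45.0% of those of F0_9. With them left out, a choice made after seeing the data, the embryonic share of Erythrocyte was 90.3% in F0_8 and 90.8% in F0_9. Whether they are misnamed was not tested.

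**Figure D2:**
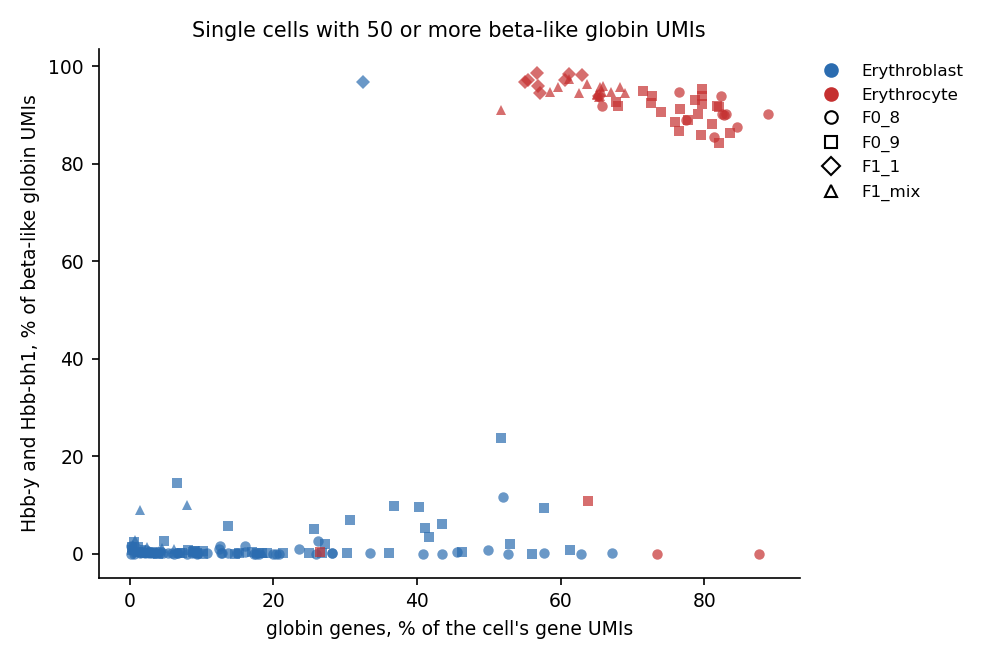
Each point is 1 cell with 50 or more beta-like globin UMIs, coloured by type and shaped by suspension. The x axis is the share of globin genes in the gene UMIs of the cell, and the y axis the share of Hbb-y and Hbb-bh1 in its beta-like UMIs. Erythroblast cells lie along the bottom over globin shares up to 67.1%, and 56 of 60 Erythrocyte cells lie near the top. The 1 blue point at the top and the 4 red points at the bottom are the exceptions described in the text.

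Some cells under the Erythroblast name had globin shares within the range of the Erythrocyte cells. Among Erythroblast cells, 10 cells had more than 50% globin, 5 in each founder, and 34 cells had under 1%, of which 18 were in the F1 suspensions (6 in F1_1 and 12 in F1_mix). The median Erythroblast cell of F1_1 was 0.0524% globin and that of F1_mix 0.463%, against 9.37% and 12.0% in F0_8 and F0_9. Among embryonic chains, Hbb-bh1 made up 4.93%, 5.77%, 14.5% and 12.2% of the embryonic pair in Erythrocyte, so its share was lower in the founders. Alpha-like UMIs per beta-like UMI were 0.421, 0.411, 0.643 and 0.445 in Erythroblast, where the F1_1 value was 0.318 without the 1 cell, and 0.614, 0.655, 0.719 and 0.712 in Erythrocyte. The minor alpha-like gene Hbq1b was at 0.834, 0.987, 0.0358 and 0.224 UMIs per 10000 outside globin genes in Erythroblast and at 6.84, 4.25, 1.68 and 3.74 in Erythrocyte, without overlap.

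All other levels are UMIs per 10000 gene UMIs outside globin genes, since on all gene UMIs the globins of Erythrocyte push nearly every other gene down. With that library, 3365 genes were tested between the types and 30.3% of them passed an adjusted p of 0.05 in edgeR, 509 (15.1%) higher and 509 (15.1%) lower in Erythrocyte. The median log2 fold change over all tested genes was −0.14. Without the TMM scaling factors it was −0.47, and the called genes were 374 higher and 899 lower. On all gene UMIs 60 were higher and 4120 lower of 4568 tested. With no filter 515 were higher and 958 lower. With cells thinned to 5000 UMIs outside globin genes 60.2% of 269 called genes were higher, but only 1 Erythrocyte cell of F0_8 was left there. Leaving out F1_mix gave 512 calls, of which 68.2% were higher, and leaving out F0_9 gave 606. The 4 levels of each type did not overlap for 39.0% of the genes tested.

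**Figure D3:**
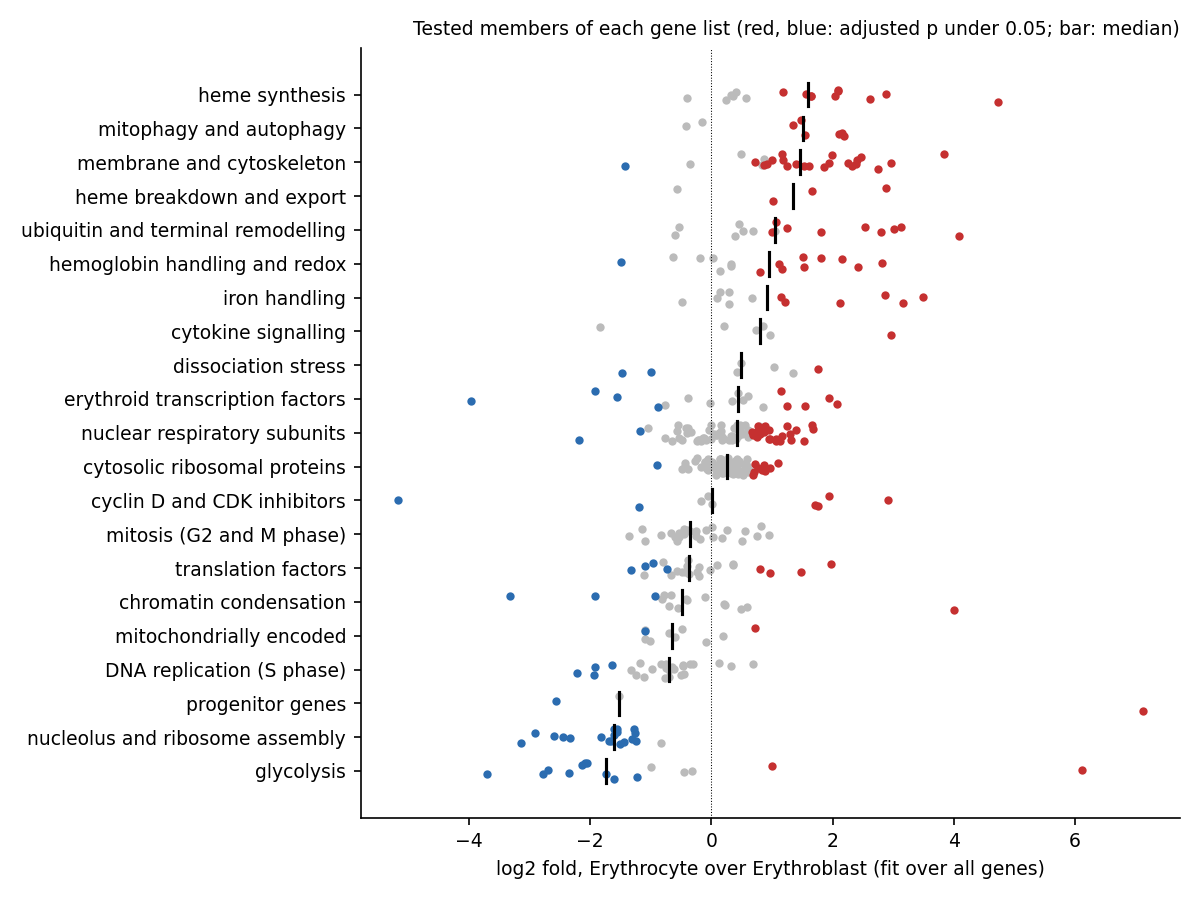
Log2 fold change of Erythrocyte over Erythroblast (fit over all genes, x axis) for each tested member of 21 gene lists. Red and blue points passed an adjusted p of 0.05, higher and lower in Erythrocyte, grey points did not, and a bar marks the median. Heme synthesis, membrane and autophagy genes lie mostly to the right, and nucleolar and most glycolytic genes to the left.

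The transcription factors that drive erythroid genes were present in both types. Gata1, the central erythroid activator, was at 1.59, 1.86, 1.47 and 1.42 in Erythroblast and 1.32, 2.28, 2.0 and 1.56 in Erythrocyte, and these ranges overlap. Klf1, which activates adult beta-globin, heme and membrane genes, was at 4.25, 3.83, 2.04 and 2.95 against 2.21, 4.02, 2.87 and 4.35. Neither passed the test (log2 fold change 0.53, SE 0.26, and 0.45, SE 0.28). Of 17 tested factors 5 were higher and 4 lower in Erythrocyte, 52.9% of them beside 30.3% of all tested genes. The median of the list was 0.45. The higher ones were Tal1, Nfe2, Klf3, E2f2 and Lyl1. Nfe2, a factor of late globin transcription, was at 0.753, 0.929, 0.358 and 0.342 in Erythroblast and 2.65, 2.76, 0.718 and 1.23 in Erythrocyte. Tal1, a partner of Gata1, had a log2 fold change of 1.25 (SE 0.29).

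The lower factors were Lmo2, Bcl11a, Sox6 and Ikzf1. Bcl11a represses embryonic globins in definitive cells together with Sox6. It was at 2.71, 1.97, 1.65 and 3.54 in Erythroblast and at 0, 0.394, 0 and 0.0558 in Erythrocyte, on 6 Erythrocyte UMIs in all, without overlap. The counts of 0 allow up to 0.662 in F0_8 and 0.239 in F1_1. Sox6 was at 3.46, 3.59, 0.25 and 1.16 against 1.54, 0.551, 0.0798 and 0.112, lower in each suspension although the ranges overlap. Lmo2, a bridging protein of the Gata1 and Tal1 complex, was at 4.49, 4.28, 4.11 and 3.55 against 1.32, 1.02, 1.36 and 0.837. Of the 7 Erythrocyte marker genes chosen for the label check (Hbb-y, Hbb-bh1, Hba-x, Hba-a1, Slc4a1, Alas2 and Bpgm) all were higher in Erythrocyte. Of the Erythroblast markers, Gata1, Klf1, Tfrc and Epor did not pass the test, and Kit had too few UMIs to be tested, at 0.199, 0.0411, 0.215 and 0.579 against 0, 0, 0 and 0.112.

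Genes of blood progenitors were low in both types. Of 18, only 3 could be tested. Runx1, needed for definitive blood formation, was at 1.69, 1.18, 1.14 and 1.96 in Erythroblast and 0.221, 0.236, 0 and 0.335 in Erythrocyte (log2 fold change −2.56, SE 0.47). Csf2rb, the common beta chain of several cytokine receptors, went the other way, with 3 UMIs in all Erythroblast sums together and levels of 0.882, 1.89, 0.639 and 0.781 in Erythrocyte. Epor, the erythropoietin receptor, was at 1.56, 1.55, 0.572 and 1.25 against 1.54, 0.945, 1.12 and 2.90, and did not pass the test. Of 6 tested genes of cytokine signalling 1 was called, 16.7% beside 30.3% of all tested genes. That gene was Pim1, a kinase induced by such receptors. It was at 2.02, 2.20, 0.715 and 0.763 in Erythroblast and 11.9, 11.7, 4.63 and 5.69 in Erythrocyte (log2 fold change 2.96, SE 0.23).

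Genes of heme production were higher in Erythrocyte. Of 16 tested, 10 were higher and 0 lower, with a median log2 fold change of 1.60. The summed level of the list was 79.5, 91.7, 29.4 and 46.3 in Erythroblast and 163, 156, 104 and 120 in Erythrocyte, without overlap. Alas2, which catalyses the first and rate-limiting step, was at 3.19, 4.05, 0.286 and 0.434 in Erythroblast and 45.0, 32.8, 17.2 and 20.6 in Erythrocyte (log2 fold change 4.73, SE 0.46). Fech, which inserts iron in the last step, was at 4.60, 5.62, 0.787 and 2.10 against 25.1, 15.9, 7.82 and 9.15. Urod and the mitochondrial carrier Slc25a39 were also higher. Cpox was not, at 12.7, 14.4, 6.22 and 8.94 against 7.50, 14.9, 11.2 and 14.7. Of 4 genes of heme breakdown and export tested, 3 were higher, and 2 without TMM. The most abundant was Blvrb, a reductase of red cells, at 24.1, 28.0, 5.79 and 11.2 against 52.5, 48.4, 23.7 and 30.3.

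Iron storage genes were higher while the receptor for iron uptake was not. Of 12 genes of iron handling tested, 6 were higher and 0 lower, 50% of them beside 30.3% of all tested genes called in either direction. Fth1, the heavy chain of ferritin, was at 102, 129, 38.9 and 64.3 in Erythroblast and 641, 582, 297 and 343 in Erythrocyte (log2 fold change 2.87, SE 0.37). Ftl1, the light chain, was at 67.9, 99.6, 28.4 and 37.5 against 281, 248, 112 and 132. Ncoa4, the receptor that delivers ferritin to lysosomes, was at 0.691, 1.01, 0.501 and 0.395 against 13.9, 6.38, 2.63 and 3.35. Slc25a37, the carrier of iron into mitochondria, had a log2 fold change of 3.17 (SE 0.33). Tfrc, the transferrin receptor, was at 3.96, 4.42, 1.39 and 2.47 against 1.54, 2.76, 2.39 and 4.13 and did not pass the test (0.30, SE 0.35, and −0.034 without TMM).

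Red cell membrane genes were higher in Erythrocyte with few exceptions. Of 26 tested, 21 were higher and 1 lower, and without TMM 17 and 1. The band 3 anion exchanger Slc4a1 was at 4.13, 4.53, 0.179 and 1.052 in Erythroblast and 16.3, 14.1, 5.27 and 9.32 in Erythrocyte. Epb42, which helps anchor the membrane skeleton, had a log2 fold change of 2.74 (SE 0.37). The 1 lower gene was Cd47, a surface signal that restrains macrophages, at 5.66, 5.76, 3.22 and 3.23 against 1.32, 2.13, 0.798 and 1.0.

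Genes that protect hemoglobin followed the same direction in the main. Of 16 tested, 9 were higher and 1 lower. Gpx1, a peroxidase, was at 31.7, 37.7, 12.1 and 18.5 in Erythroblast and 261, 166, 64.6 and 94.5 in Erythrocyte. Prdx2, the abundant peroxiredoxin of red cells, was at 37.2, 43.2, 13.1 and 20.3 against 155, 117, 81.3 and 96.7. Car2, the carbonic anhydrase, was higher as well, with a log2 fold change of 2.15 (SE 0.28). Txnrd1, a thioredoxin reductase, was the lower gene, at 1.27, 1.74, 1.25 and 1.53 against 0.221, 0.473, 0.239 and 0.614.

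Genes of organelle clearance were higher in Erythrocyte. Of 8 tested genes of mitophagy and autophagy, 6 were higher and 0 lower. Bnip3l, the receptor that marks mitochondria for removal in reticulocytes, was at 2.75, 3.03, 1.82 and 2.17 in Erythroblast and 20.7, 10.7, 3.67 and 5.24 in Erythrocyte. Map1lc3b, a protein of the autophagosome membrane, was at 1.80, 2.06, 1.82 and 1.70 against 11.9, 8.03, 3.75 and 5.35. In Erythrocyte both founders stood above both F1 suspensions for each of these genes. Of 16 tested genes of ubiquitin transfer and terminal remodelling, 9 were higher and 0 lower (7 and 0 without TMM). Ube2l6, a conjugating enzyme, was at 0.978, 1.23, 0.179 and 0.289 against 13.5, 9.37, 3.99 and 5.97, and Trim10, a ligase of maturing erythroid cells, had a log2 fold change of 2.80 (SE 0.26).

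Nucleolar genes were lower in Erythrocyte almost throughout. Of 19 tested, 18 were lower and 0 higher, with a median log2 fold change of −1.60. The summed level was 88.7, 78.1, 159 and 142 in Erythroblast and 11.2, 14.6, 45.1 and 17.9 in Erythrocyte, against 43.1 to 52.3 in all other cell types. Npm1, the most abundant nucleolar phosphoprotein of the list, was at 32.4, 29.0, 62.4 and 55.8 in Erythroblast and 1.99, 3.39, 8.46 and 3.40 in Erythrocyte (log2 fold change −3.13, SE 0.30). Ncl, nucleolin, was at 15.9, 13.3, 29.5 and 27.3 against 1.32, 3.15, 7.34 and 2.68. The F1 suspensions stood above the founders in Erythroblast for both genes, the reverse of their order for the globin share.

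The Erythrocyte levels of cell cycle genes varied between suspensions. Of 27 tested genes of DNA replication 4 were lower (Gins2, Dut, Hells and Ccne1) and 0 higher, a share of 14.8% beside the 15.1% of all tested genes that were lower, and without TMM 10 were lower. Of 27 tested mitotic genes 0 passed the test, and without TMM 4 were lower. The summed level of the replication genes was 60.9, 63.4, 56.1 and 63.4 in Erythroblast and 3.75, 13.1, 46.6 and 51.2 in Erythrocyte, against 23.5 to 31.3 in all other cell types. The mitotic genes summed to 73.7, 73.9, 40.3 and 45.4 in Erythroblast and to 19.2, 42.5, 34.1 and 74.0 in Erythrocyte, against 26.7 to 32.4 in the others. The replication sum of Erythrocyte was above that of the other cells in both F1 suspensions and below it in both founders. The mitotic sum did not split in this way, being below that of the other cells in F0_8 and above it in F0_9 and F1_mix, with 34.1 against 31.7 in F1_1.

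Regulators of the G1 phase moved in both directions. Of 9 tested D cyclins, partner kinases and inhibitors of division 4 were higher and 2 lower, 66.7% of them beside 30.3% of all tested genes. Without TMM 3 were higher and 2 lower. Ccnd3, the cyclin that sets the number of terminal divisions, was at 4.64, 6.49, 2.07 and 2.14 in Erythroblast and 5.51, 9.69, 9.74 and 11.0 in Erythrocyte (log2 fold change 1.71, SE 0.37). Cdk6, a partner of D cyclins, was at 1.03, 0.452, 1.11 and 1.46 against 0, 0.0788, 0 and 0, on 1 Erythrocyte UMI. Cdkn2d, Btg1 and Btg2, which restrain division, were higher and Cdk4 was lower. Of 16 tested genes of chromatin condensation 1 was higher and 3 lower, 25% of them beside 30.3% of all tested genes. The higher gene was Xpo7. It encodes an exporter of nuclear proteins, and was at 0.249, 0.321, 0.215 and 0.276 in Erythroblast and 11.2, 5.83, 0.798 and 0.725 in Erythrocyte. Hmgb3 and Rac2 were among the lower genes.

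**Figure D4:**
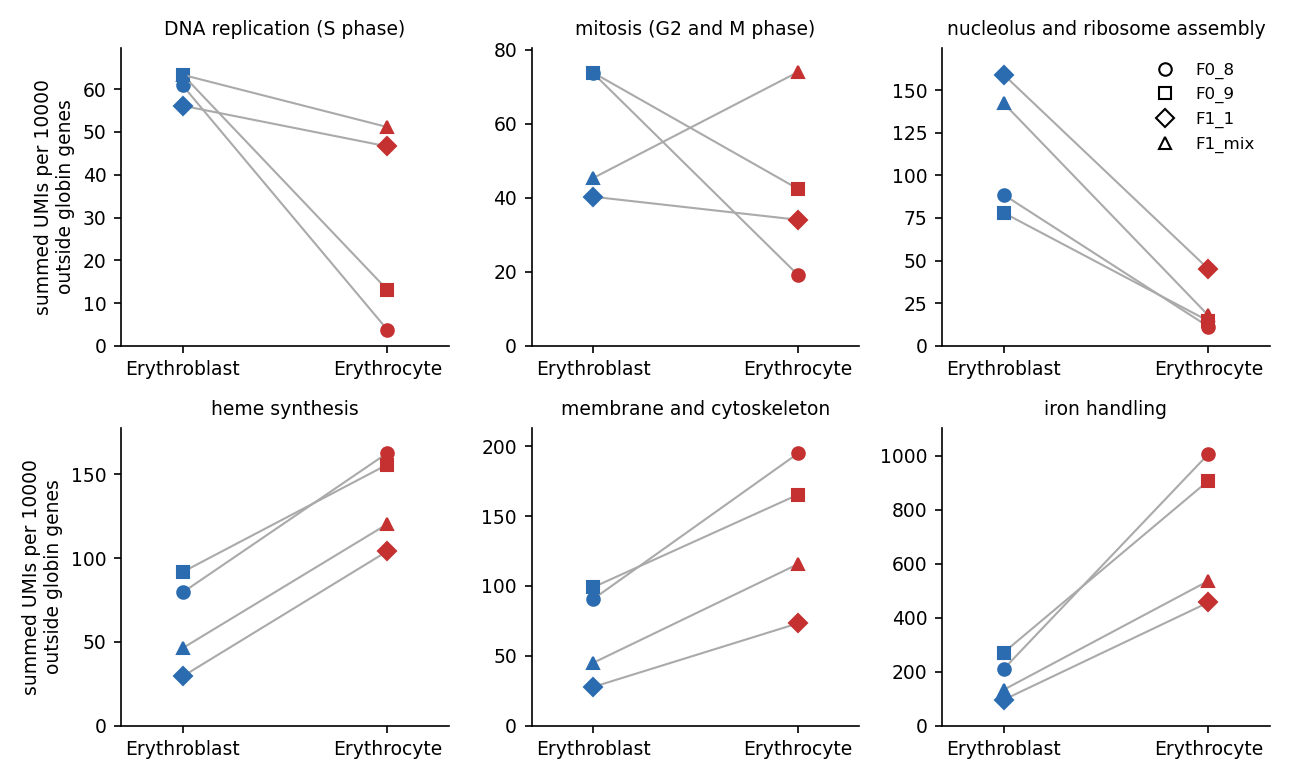
Summed UMIs per 10000 outside globin genes of 6 gene lists, with the Erythroblast and Erythrocyte sums of each suspension joined by a line. The Erythrocyte sums of replication genes lie at 3.75 and 13.1 in the founders and at 46.6 and 51.2 in the F1 suspensions, nucleolar sums are lower in Erythrocyte in all 4, and heme, membrane and iron sums higher in all 4.

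Most glycolytic genes tested were lower in Erythrocyte. Of 15 tested, 10 were lower and 2 (Bpgm and the glucose transporter Slc2a1) higher, with a median log2 fold change of −1.74, and without TMM 12 were lower and 1 higher. The summed level, which includes Bpgm, was 66.7, 70.6, 116 and 87.0 in Erythroblast and 69.5, 61.0, 40.6 and 28.2 in Erythrocyte, so it was lower in 3 of 4 suspensions and not in F0_8. Slc2a1 was at 1.31, 2.57, 0.644 and 0.671 against 4.19, 2.76, 1.28 and 0.669, and these ranges overlap (log2 fold change 0.996, SE 0.33). Ldha, lactate dehydrogenase, was at 10.7, 9.88, 23.1 and 16.9 in Erythroblast and 0, 0.788, 2.79 and 0.558 in Erythrocyte, and Pkm, pyruvate kinase, had a log2 fold change of −2.68 (SE 0.32). Bpgm, which makes the 2,3-bisphosphoglycerate that lowers the oxygen affinity of adult hemoglobin, was at 0.361, 0.461, 0.250 and 0.395 in Erythroblast and 44.1, 35.4, 9.26 and 8.09 in Erythrocyte (log2 fold change 6.12, SE 0.44). Gapdh did not pass the test (−0.45, SE 0.22) and did so without TMM (−0.78). Of 78 tested nuclear genes of the respiratory chain 25 were higher and 2 lower, 34.6% of them beside 30.3% of all tested genes. Without TMM 12 were higher and 10 lower. Of 10 mitochondrially encoded genes mt-Co1 was higher and mt-Nd5 lower, 20% of them beside 30.3% of all tested genes. Without TMM none was higher and 6 were lower. Their list summed to 236, 218, 127 and 210 in Erythroblast and 124, 108, 183 and 163 in Erythrocyte, higher in Erythrocyte in F1_1 only. Of 79 cytosolic ribosomal protein genes 9 were higher and 1 lower, 12.7% of them against 30.3% of all genes, and without TMM 2 were higher and 2 lower. The median of that list was 0.26, and −0.075 without TMM. Of 24 translation factors 4 were higher and 4 lower, 33.3% of them and near the 30.3% of all tested genes. Their median was −0.37, and without TMM 3 were higher and 12 lower. Pabpc1, which binds the poly(A) tail of mRNA, was 1 of the higher ones, at 8.57, 8.12, 9.12 and 8.97 against 43.9, 34.3, 16.8 and 20.8.

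Outside the lists, 20 genes were taken by size of the fold change among called genes without overlap. Nudt4, a diphosphohydrolase, was the most abundant of those higher in Erythrocyte, at 1.72, 1.77, 1.18 and 0.999 in Erythroblast and 62.0, 54.6, 23.9 and 33.1 in Erythrocyte (log2 fold change 5.23, SE 0.28). Hsd3b6, a steroid dehydrogenase, was at 0.0311, 0.0905, 0.0715 and 0 against 38.2, 22.4, 2.0 and 4.63. Ackr3, a scavenging chemokine receptor, was at 2 UMIs in all Erythroblast sums together and at 8.82, 4.96, 0.798 and 1.62 in Erythrocyte. Pdzk1ip1, whose gene neighbours Tal1, was at 0.0996, 0.173, 0.107 and 0 against 11.9, 10.2, 4.71 and 7.2. Ncf4, an NADPH oxidase subunit, was at 0.131, 0.189, 0.0715 and 0.0132 against 11.2, 8.66, 2.87 and 4.74. The others were Lmx1a, Cfap57, Ccdc141, Aqp8 and Dapk2, each under 5 per 10000 in every sum.

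Among the genes lower in Erythrocyte, Ppif, the cyclophilin of the mitochondrial permeability pore, had 0 UMIs in all 4 Erythrocyte sums and 0.598, 0.518, 1.72 and 1.46 per 10000 in Erythroblast. Against the limit of 3 counts over all Erythrocyte UMIs it was at least 13.1-fold lower. Vamp5, a vesicle protein, was at 1.87, 1.51, 2.72 and 2.56 in Erythroblast on 756 UMIs, and had 2 UMIs in all of Erythrocyte. Tagln2, an actin-binding protein, was at 0.847, 0.839, 2.72 and 2.10, also with 2 Erythrocyte UMIs. Npm3, a relative of Npm1, was at 1.69, 1.47, 2.72 and 3.27 against 0, 0.315, 0 and 0.223. Pla2g12a, Cd81, Itga4, Tle5, Ppm1l and Slc16a3 completed the set, with 3 to 6 Erythrocyte UMIs each.

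EGFP, the transgene that played no part in the clustering, was low in both types. It was at 1.13, 1.13, 4.47 and 1.62 UMIs per 10000 outside globin genes in Erythroblast and 0.441, 0.788, 1.44 and 0.669 in Erythrocyte, on 2, 10, 18 and 12 Erythrocyte UMIs. All other cell types together held 12.7, 11.47, 25.4 and 11.3. The level was lower in Erythrocyte in 4 of 4 suspensions, by 1.20 ± 0.48 on the log2 scale (SD, n = 4), with an exact permutation p of 0.125, the smallest that 4 pairs can give. In the edgeR fit the log2 fold change was −0.87 (SE 0.31, adjusted p = 0.0508), and without TMM it was −1.21 (adjusted p = 0.0101). The highest level lay in F1_1 in both types and in the other cells alike. Droplets of 1 to 100 UMIs, which hold free RNA, were at 13.6 EGFP UMIs per 10000 and those of 100 to 300 UMIs at 7.86, and the part of free RNA in these low levels was not tested.

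**Figure D5:**
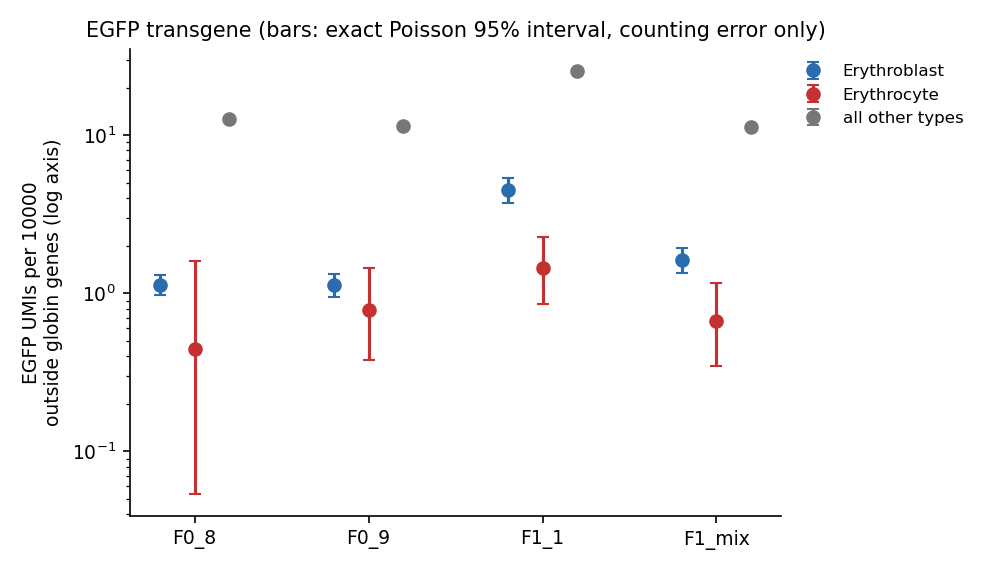
EGFP UMIs per 10000 outside globin genes (log axis) in each suspension for Erythroblast, Erythrocyte and all other types, with exact Poisson 95% intervals (counting error only). Erythrocyte lies below Erythroblast in each suspension, and both lie below the other types, which are at 11.3 to 25.4.

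Erythrocyte cells held RNA of fewer genes. The median cell had 26877, 27491.5, 41188 and 37632 gene UMIs in Erythroblast and 21475.5, 22074, 34126 and 31094 in Erythrocyte. Outside globins the gap was wider, with 23719.5, 24292, 41139 and 37570 in Erythroblast against the Erythrocyte values of 3925.5 to 14327 given above. Detected genes per cell were 4651, 4325.5, 5817 and 5763 against 1335, 1583, 3018 and 2778.5, lower in 4 of 4 suspensions (exact permutation p = 0.125). With each cell thinned to 2000 UMIs outside globins, which left out 3 cells, the medians were 1019.5, 1005, 1118 and 1109 in Erythroblast and 865, 879, 888 and 929.5 in Erythrocyte, again lower in 4 of 4.

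The share of Erythrocyte among erythroid cells was compared between generations. Erythrocyte made up 15.8% (95% Clopper-Pearson interval 8.43 to 26.0), 30.7% (20.5 to 42.4), 56.3% (29.9 to 80.2) and 43.2% (27.1 to 60.5) of the erythroid cells. Both founders lay below both F1 suspensions, with means of 23.2% and 49.7% and an exact permutation p of 0.333, the smallest that 2 against 2 can give. Erythroblast cells were 4.0%, 3.95%, 0.534% and 1.45% of all cells of a suspension, and Erythrocyte cells 0.750%, 1.75%, 0.687% and 1.10%. Dissociation and a sort against debris had come before these counts, and their part in the shares was not tested.

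The founders and the F1 suspensions also differed in the fold change between the types. In a test of that difference itself (the interaction of type and generation in edgeR), 139 genes (4.13% of those tested) had a lower log2 fold change of Erythrocyte over Erythroblast in the founders and 30 (0.892%) a higher one. Of the 27 replication genes 17 were lower and of the 27 mitotic genes 11. Pcna, the sliding clamp of DNA polymerase, was at 3.91, 4.50, 2.93 and 3.93 in Erythroblast and 0, 1.10, 3.59 and 4.91 in Erythrocyte, where the 0 of F0_8 allows up to 0.662 (difference of log2 fold changes −2.84, adjusted p = 6.73e-06). Top2a, which untangles replicated DNA, was at 5.84, 5.46, 1.93 and 3.33 against 0.221, 1.5, 2.63 and 5.63. Both genes were lower in Erythrocyte than in Erythroblast in the founders, and Pcna was close to its Erythroblast level in F1.

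Some of these differences lay in the Erythroblast cells instead. Alas2 and Slc4a1 had a lower log2 fold change in the founders, although their Erythrocyte levels were higher in both founders than in both F1 suspensions. Their Erythroblast levels were several times lower in F1. Bpgm, Xpo7, Bnip3l, Ubb and Pabpc1 had a higher log2 fold change in the founders. Ubb, a ubiquitin gene, was at 11.7, 12.7, 14.4 and 12.6 in Erythroblast and 43.7, 25.8, 6.79 and 9.20 in Erythrocyte. With 1 suspension left out, 1 generation has a single suspension, whose spread is assumed to be that of the other pair, on 1 residual degree of freedom. Without F0_8, 0 genes passed in edgeR (376 at an unadjusted p under 0.05), without F0_9 18, without F1_mix 70 and without F1_1 78. The size of the differences did not shrink to 0 in these fits: that of Pcna was −2.32 and that of Top2a −2.48 without F0_8, and the sign was kept in 18 of 18 named genes with any 1 suspension left out, genes that were themselves named from the calls. The F1_1 Erythroblast sum holds only 7 cells.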

How the data were processed

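Single-cell 3′ libraries of dissociated E11.5 mouse embryos were sequenced by the authors, who aligned the reads to GRCm38 (mm10) with the EGFP sequence added and deposited UMI counts per gene and cell from Cell Ranger (the headers and the software table of the study give 7.2.0, and 1 methods paragraph another release). The methods name Seurat for clustering, SoupX for free RNA, DoubletFinder for doublets and RECODE for noise, but the matrices used here hold the counts as deposited, with no correction for free RNA. The cell table of the authors gave the suspension and the cell type of each cell, and no further doublet caller was run. Oligo counts (12 features beside 21937 genes) stayed out of all sums. The number of per-sample columns that could not be mapped was 0.

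Gene UMIs were summed per suspension and type (8 sums). edgeR 4.0.16 (R 4.3.3, quasi-likelihood F test, suspension as a block, filterByExpr by type with a minimum count of 10, Benjamini-Hochberg adjustment, threshold 0.05) was fitted over all genes, with the library size and TMM factors taken outside genes named Hba- or Hbb-. The suspension is a true pair, since both types of a sum come from the same cells in suspension, and the deviations of same-suspension sums from their type means correlated at 0.191, 0.21, 0.347 and 0.0903 (F0_8 first, then F0_9, F1_1 and F1_mix). The fit was tested on simulated counts with 200 changed genes. Single values were compared with exact two-sided permutation tests in scipy 1.17.1 (Python 3.11.15, numpy 2.4.6, pandas 2.3.3). Shares carry Clopper-Pearson and levels exact Poisson 95% intervals, and a count of 0 allows up to 3 counts. Depth was 45336 to 1605998 UMIs outside globin genes per sum. Alternatives were other scalings, DESeq2 1.42.0, no filter, no block, other cell filters, thinning and leaving out each suspension.

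Named genes were members of 33 lists, EGFP and, outside the lists, the 10 largest fold changes in each direction among called genes whose levels did not overlap, with a mean of at least 1 UMI per 10000 in the higher type. Single values of a few list members are not reported here. Members and lists were chosen with earlier results of these data known.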

Additional observations from a re-analysis of the deposited data

Results flagged for a closer look

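In 5 of the 63 groups of 4 suspensions looked at, 1 suspension stood apart from the other 3, where chance sets about 3.1 apart (1 in 20). In these 5 it was F1_1. In Erythroblast these were the embryonic share of beta-like globin (76.0%), the Hba-x share of alpha-like globin (58.3%) and the EGFP level (4.47 per 10000 outside globin genes). Both shares rest on the 1 cell described above, and were 5.56% and 4.85% without it, whereas EGFP in F1_1 was also highest in the other cell types. In Erythrocyte they were the summed levels of translation factors (241) and of dissociation stress genes (21.0).

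The log2 fold change of Erythrocyte over Erythroblast differed between founders and F1 suspensions for 169 genes in edgeR. Given as the log2 fold change in the founders minus that in F1, replication and mitotic genes were below 0: Pcna at −2.84, Mcm6 at −3.89, Mcm3 at −2.71, Rrm2 at −2.90, Slbp at −2.17, Top2a at −3.02 and Mki67 at −2.01. Hmgb2, a chromatin protein on the list of chromatin condensation, was at −2.07. Of 16 tested heme synthesis genes 3 passed below 0 and 0 above it, among them Alas2 at −2.26. Of 10 tested mitochondrially encoded genes 5 passed below 0 and 0 above it, beside 4.13% of all tested genes below 0. Of 26 membrane genes 5 passed below 0, among them Slc4a1 at −1.79, and 1 passed above it (Mpp1 at 3.91, named after its value was seen). Hbq1b at −1.72, Tfrc at −1.65 and the cyclin gene Ccnd3 at −1.86 were below 0 too. Above 0 lay Bnip3l at 1.19, Xpo7 at 3.25, Bpgm at 1.95, Ubb at 2.21 and Pabpc1 at 1.15. Of the 139 genes below 0, 17 were on the list of DNA replication genes. Without F0_8, which leaves 1 founder, 0 genes passed (376 at an unadjusted p under 0.05 in edgeR), while Pcna was at −2.32 and Mcm6 at −3.39. Globin share moved with this difference, at 80.9% and 75.2% in the founder Erythrocyte sums against 59.2% and 63.8% in F1, and its part in the result was not tested.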

How the results depend on the processing

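The number of genes called between the types, 1018, was 882 with no replicate block, 1273 without TMM factors, 903 in DESeq2, 1096 with TMM over all genes and 1473 with no filter. It was 4180 with all gene UMIs as the library and 269 after thinning to 5000 UMIs outside globin genes, where fewer cells and 1109 genes were left. The thinned Erythrocyte sums held 1 of 12 cells in F0_8 and 13 of 23 in F0_9. Leaving out 1 suspension gave 512 to 1196. Of the list members 179 were called, 400 with all gene UMIs, 96 after thinning and 119 to 193 with 1 suspension left out. Over all genes the calls were 1018 of 3365 tested, 4180 of 4568 with all gene UMIs and 269 of 1109 after thinning. The member counts are therefore not read as results about the lists. The difference between founders and F1 passed for 169 genes and for 0 to 78 with 1 suspension left out (0 without F0_8, with 376 at an unadjusted p under 0.05 in edgeR). Those fits leave 1 suspension in 1 generation and 1 residual degree of freedom, so lost calls there say little about the size of the differences. The sign was kept in 18 of 18 named genes. Those genes were named from the calls and each fit reuses the remaining suspensions, so the kept sign is no separate support. Sizes moved, with Pcna at −11.3 and Mcm3 at −9.83 without F0_9. The difference between founders and F1 passed for 249 genes with the 5 cells of the other globin balance left out, an alternative chosen after seeing the data. It passed for 175 without TMM.

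With all gene UMIs as the library, log2 fold changes turned negative for Hbb-bs (−0.46), Gata1 (−1.45), Klf1 (−1.55), Tal1 (−0.74), Nfe2 (−0.10), Epor (−1.26), Cpox (−1.42), Blvrb (−0.34), Tfrc (−1.71), Ubb (−1.32), Ccnd3 (−0.29), Pabpc1 (−0.037) and mt-Co1 (−1.28). That library holds the globin UMIs, which make up most of the Erythrocyte sums. Hbb-bs was also negative after thinning (−0.24), and its main call (log2 1.54, adjusted p = 0.0438 in edgeR) was lost in each fit that left out 1 suspension, with no replicate block (adjusted p = 0.356), without TMM and without the cells of the other globin balance, so no direction is given for it. The call of mt-Co1 was lost in each fit that left out 1 suspension too. With no replicate block Hbb-bt and Sox6 also lost their calls.

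The shallow Erythrocyte sum of F0_8 (45336 UMIs outside globins) and the 7 Erythroblast cells of F1_1 limit what can be seen of low genes.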

Other observations

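The balance of the 2 adult beta-like genes differed from cell to cell. Among 118 Erythroblast cells with 50 or more adult beta-like UMIs, Hbb-bt made up 0% to 94.1% of Hbb-bs and Hbb-bt together, with a median of 37.7%, and in 15 cells the share was under 20% or over 80%. In the 60 Erythrocyte cells it ran from 19.4% to 99.6% with a median of 75.2%, and 27 cells were over 80%. Summed by suspension, Hbb-bt made up 36.5%, 37.5%, 48.8% and 45.3% of the adult pair in Erythroblast and 46.1%, 56.7%, 92.4% and 80.7% in Erythrocyte, so that its share was higher in Erythrocyte in 4 of 4 suspensions. Hba-a2 made up 38.0%, 39.4%, 36.9% and 34.5% of the adult alpha-like pair in Erythroblast and 38.9%, 37.2%, 35.5% and 36.4% in Erythrocyte. The split of reads between these near-identical copies is uncertain, so their share cannot be set against that of the beta-like pair. These are descriptions of the clustered cells, without a test.

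Droplets of 1 to 100 UMIs, which hold free RNA of the pool, were 2.13% globin, and 45.0% of their beta-like UMIs were embryonic. Droplets of 100 to 300 UMIs were 0.358% globin, with 53.8% embryonic.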
